A study of Bos taurus with 6 samples.

Results

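TXNIP, the α-arrestins and the glucose-sensing factors that act on TXNIP were followed in RNA from bovine granulosa cells (GC), the somatic cells that line the ovarian follicle and surround the oocyte. The 8 symbols were TXNIP, ARRDC1, ARRDC2, ARRDC3, ARRDC4, MLXIP, MLXIPL and TXN. They were chosen from results of the same comparison that is described here, in which TXNIP and ARRDC4 were among the strongest falls, so the differences of these 8 genes are given as a description and without a test. Each symbol had 1 row in the deposited table, called a transcript cluster, which is the array's unit for a gene. The 8 rows were found among 26773 transcript clusters, and none shared its signals with another row.

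GC from abattoir ovaries of cows of undefined cycle stage were pooled, cryo-preserved and then cultured without serum in α-MEM for 9 days. All cultures received FSH, IGF-1 and androstenedione. They differed in the initial plating density, normal in 3 cultures and high in 3 cultures, and each culture was hybridized to its own Bovine Gene 1.0 ST Array. The methods count 6 GC preparations, and a preparation was a pool of cells from many ovaries. The pools limit the cultures as a model, since they carry no information on single animals. The SDs given here measure the spread between pooled cultures. The standard errors come from the fit, which draws the variance of each transcript cluster toward a value shared by all transcript clusters.

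Signals are on the log2 scale of the RMA procedure, with array medians of 4.34 to 4.43 in the 6 cultures. The background level was set at 4.62, the 95th percentile of 82 control rows for reporter genes that the table lists. Among the 10 markers of GC, 5 were called down and 1 up, beside 3.51% and 3.97% of all transcript clusters. CYP19A1 fell by 2.80, FSHR by 2.21 and INHA by 2.16 on the log2 scale, and HSD17B1 rose by 1.26. At each density 9 had a mean above background, but not the same 9. CYP19A1 went from 6.51 to 3.71, below background, and HSD17B1 from 4.19, below background, to 5.45. Of the leukocyte markers (6 rows) and the red blood cell markers (5 rows) none had a mean above background, and of the endothelial markers (6 rows) 1 had, VWF. Of the 5 genes listed as theca markers 2 were called up and 1 down. The row called down is LHCGR, a transcript that the study also follows in GC. INSL3 rose from 7.20 to 9.02 and ACTA2 from 6.98 to 8.13, LHCGR fell from 4.04 to 2.84 with both means below background, and CYP17A1 and TCF21 were below background at each density. The summed linear signal of this list was between 297 and 316 at normal and between 760 and 900 at high density. For the 5 markers of surface epithelium these sums were 780 to 816 and 1125 to 1287. Most of each sum was the signal of UPK1B, which rose from 9.46 to 10.08. MSLN had means of 5.61 and 5.75 and WT1 of 4.22 and 4.67, neither called, and LRRN4 and UPK3B were below background at each density. The part of such cells in the values below was not tested.

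Thioredoxin-interacting protein, the product of TXNIP, is an α-arrestin that binds reduced thioredoxin and slows glucose uptake by promoting the internalization of glucose transporters. Its gene is among the genes most sensitive to glucose in mammalian cells. The glucose sensors MondoA (encoded by MLXIP) and ChREBP (encoded by MLXIPL) pair with MLX, enter the nucleus when glucose-6-phosphate is plentiful and bind carbohydrate response elements in the promoters of TXNIP and ARRDC4. The ARRDC proteins share the arrestin fold and act as adaptors that bring ubiquitin ligases of the NEDD4 family to membrane proteins.

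At high plating density TXNIP and ARRDC4 had much lower signals, ARRDC2 had a higher signal, and ARRDC1, ARRDC3 and TXN differed by 0.11 or less on the log2 scale. A transcript cluster is counted as called where it passed the thresholds that the study set, a change of more than 1.5-fold together with an FDR and a p-value below 0.05. As a description of values already used for the choice, 2 of the 8 members passed these thresholds downward and 1 upward, beside 3.51% of all transcript clusters called down, 3.97% called up and 7.49% called in either direction. The groups did not overlap in 4 of the 8 members, as in 37.3% of all transcript clusters.

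**Figure D1:**
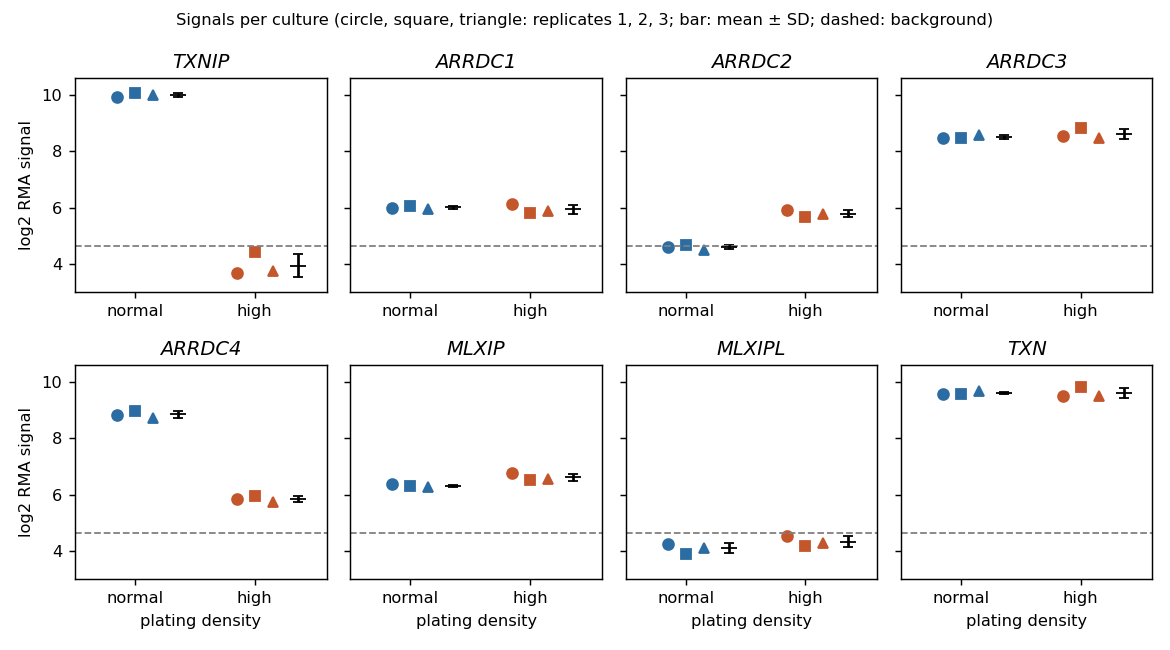
Log2 RMA signals of the 8 members (vertical axis) in each culture at normal and high plating density, with the replicates as circles, squares and triangles, the mean and SD of 3 cultures as a black bar and the background level of 4.62 as a dashed line. TXNIP lay near 10 in all normal density cultures and below the background level in all high density cultures, ARRDC4 fell to a level above background, and ARRDC2 rose from the background level.

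The signals of TXNIP (transcript cluster 12837074, NM_001101875) were 9.96, 10.07 and 10.01 in the normal density cultures and 3.66, 4.40 and 3.73 in the high density cultures. All high density signals were below the background level, and the highest of them, that of replicate 2, was 5.55 below the lowest normal density signal. The mean was 10.01 ± 0.06 (SD, n = 3) at normal and 3.93 ± 0.41 (SD, n = 3) at high density, and the log2 difference was −6.08 with a standard error of 0.19. Taken at face value this is a 67.6-fold lower signal. Since the high density signals cannot be told from background, the measured bound is that TXNIP was at least 41.9-fold lower at high density, with the background level in place of the dimmer signals. It was the largest fall in the table. In RNA from whole cultures, fewer cells with a transcript and less of it per cell cannot be told apart.

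ARRDC4 (12793470, NM_001192034), the α-arrestin that shares glucose regulation with TXNIP, had signals of 8.85, 8.99 and 8.74 at normal density and of 5.84, 5.94 and 5.72 at high density. Every signal of both groups was above background, so that the size of this fall is not limited by it. The means were 8.86 ± 0.12 and 5.83 ± 0.11 (SD, n = 3 each), the log2 difference was −3.03 (standard error 0.09), an 8.15-fold lower signal, and it had rank 3 among the falls in the table. The spread between cultures was similar at both densities, with an SD ratio of 0.898 for high over normal density.

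ARRDC2 (12885849, NM_001081592), an α-arrestin of less studied function, went the other way. Its signals were 4.60, 4.68 and 4.50 at normal density, of which only that of replicate 2 exceeded the background level, and 5.90, 5.66 and 5.79 at high density, all above it. The groups were separate, and the log2 difference was 1.19 (standard error 0.09), 2.28-fold. With the signals below background set to that level the log2 difference was 1.14.

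ARRDC3 (12887514, NM_001076257), an adaptor in the sorting of β-adrenergic receptors and integrins, had a high signal in all cultures. It was 8.46, 8.48 and 8.58 at normal density and 8.56, 8.82 and 8.49 at high density, and the groups overlapped. The log2 difference of 0.11 (standard error 0.10) was about as large as its error. ARRDC1 (12708612, NM_001080365), which drives the budding of small vesicles from the plasma membrane, had signals of 5.99, 6.06 and 5.96 at normal and 6.13, 5.82 and 5.89 at high density. The high density signals lay on both sides of the normal density signals, with a log2 difference of −0.06 (standard error 0.10).

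**Figure D2:**
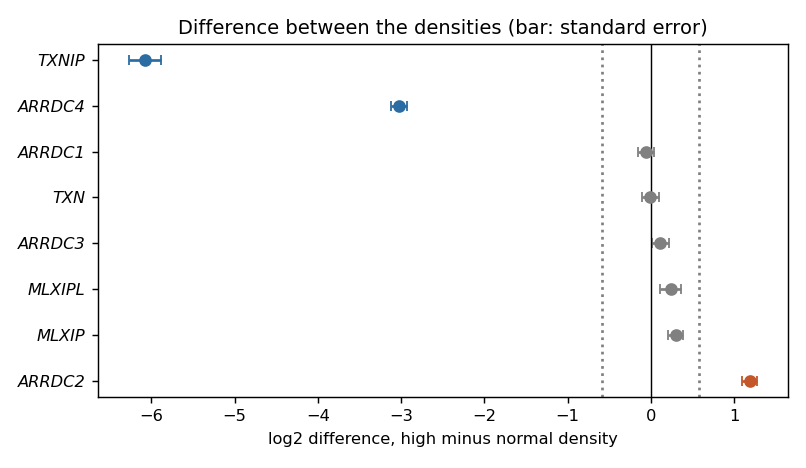
Log2 difference of each member between the densities, high minus normal (horizontal axis), with its standard error from the fit across all transcript clusters. Blue marks members past the thresholds downward, orange the member past them upward and grey the others, and the dotted lines are the threshold of a 1.5-fold change. TXNIP at −6.08 and ARRDC4 at −3.03 lie far to the left, ARRDC2 at 1.19 to the right, and the other 5 members lie between the dotted lines.

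Both glucose-sensing factors differed by less than the 1.5-fold threshold. MLXIP (12748301, NM_001205436), the gene of MondoA, had signals of 6.36, 6.30 and 6.27 at normal density and 6.77, 6.51 and 6.54 at high density. The high density signals were all above the normal density signals, and the log2 difference was 0.30 (standard error 0.09). MLXIPL (12814618, NM_001205408), the gene of ChREBP, was below the background level in every culture, with signals of 4.25, 3.89 and 4.11 at normal and 4.53, 4.16 and 4.28 at high density. The groups overlapped, and the log2 difference of 0.24 (standard error 0.13) between signals at background is no measure of a change. The common partner MLX (12762261) had signals of 6.53, 6.56 and 6.56 at normal and 6.93, 6.79 and 6.97 at high density and was not called, with a log2 difference of 0.35 (standard error 0.07, limma's adjusted p = 0.0165).

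TXN (12892597, ENSBTAT00000044356) encodes cytosolic thioredoxin, the disulfide reductase to which the TXNIP protein binds. Its signals were 9.60, 9.59 and 9.67 at normal density and 9.49, 9.83 and 9.51 at high density. The means were 9.62 ± 0.04 and 9.61 ± 0.19 (SD, n = 3) with overlapping groups and a log2 difference of −0.01 (standard error 0.10). At normal density TXN and TXNIP were both above background in every culture, and at high density TXN alone was.

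The cultures of a density did not vary alike. At normal density the SD of the members was between 0.04 and 0.18, and at high density between 0.11 and 0.41. For TXNIP the SD was 7.44 times as large at high density, measured below background, for TXN 4.23 times, and for ARRDC1 3.25 times. The ratio was 3.06 for MLXIP, 2.82 for ARRDC3, 1.40 for ARRDC2, 1.08 for MLXIPL and 0.898 for ARRDC4, so not all members spread more. The median SD over all transcript clusters was 0.08 at normal and 0.13 at high density. High density replicate 2 had the highest signals of TXNIP, ARRDC3, ARRDC4 and TXN among the cultures of its density, and the lowest signals of ARRDC1, ARRDC2, MLXIP and MLXIPL. Without this culture the log2 differences were −6.31 for TXNIP, −3.08 for ARRDC4, 1.25 for ARRDC2, 0.35 for MLXIP, 0.32 for MLXIPL, 0.02 for ARRDC3, 0.00 for ARRDC1 and −0.11 for TXN.

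**Figure D3:**
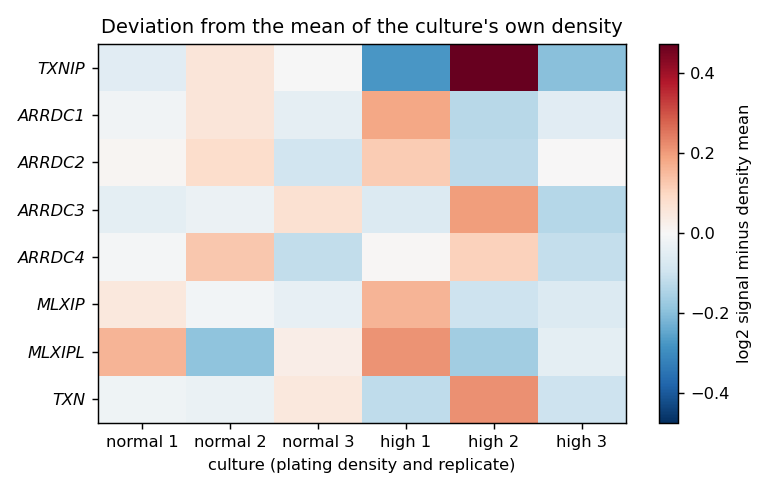
Deviation of each member's log2 signal from the mean of the 3 cultures of its own density, per culture (columns) and member (rows), with red above and blue below that mean. High density replicate 2 stands out with 0.47 for TXNIP, 0.22 for TXN and 0.20 for ARRDC3, and with −0.16 for MLXIPL and −0.13 for ARRDC1.

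Within densities, the deviations of TXN correlated with those of TXNIP and ARRDC3, each with r = 0.96 over the 6 cultures, and those of ARRDC1 with those of ARRDC2 and MLXIP, with r = 0.90 and 0.91. For TXNIP and ARRDC4 the value was 0.59, and for TXNIP and ARRDC2 −0.70. The largest deviations of TXNIP, ARRDC3 and TXN were those of high density replicate 2, and the correlations are a description of these 6 cultures. For TXNIP the high density deviations are between signals below background, which limits its correlations.

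Over the 6 cultures, the signals most like those of TXNIP among named transcript clusters outside the members were those of PBRM1, DZANK1, PLD1, FAM171B and FAM129A, with Pearson's r of 0.9994 for FAM129A and above that for the others. Their log2 differences were far smaller, between −1.08 for FAM171B and −0.38 for PBRM1. Most like ARRDC4 were TMEM56, PPAP2B, RASL11B, SERPINE2 and CAMK2G, with r from 0.9985 for CAMK2G to 0.9997 for TMEM56 and log2 differences between −1.92 for RASL11B and −0.51 for TMEM56. These values share the separation of the densities, which sets most of the correlation.

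Genes around these members were described with 8 lists written from general knowledge, 121 transcript clusters in all. Of these 18 were called up and 5 down, 19.0% in either direction beside 7.49% of all transcript clusters, and the median log2 difference was 0.07 beside 0.02 over the table. The lists hold fewer rows at background than the table does. When only transcript clusters above background were tested, 22.6% of 93 in the lists and 13.0% of all 13077 were called.

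**Figure D4:**
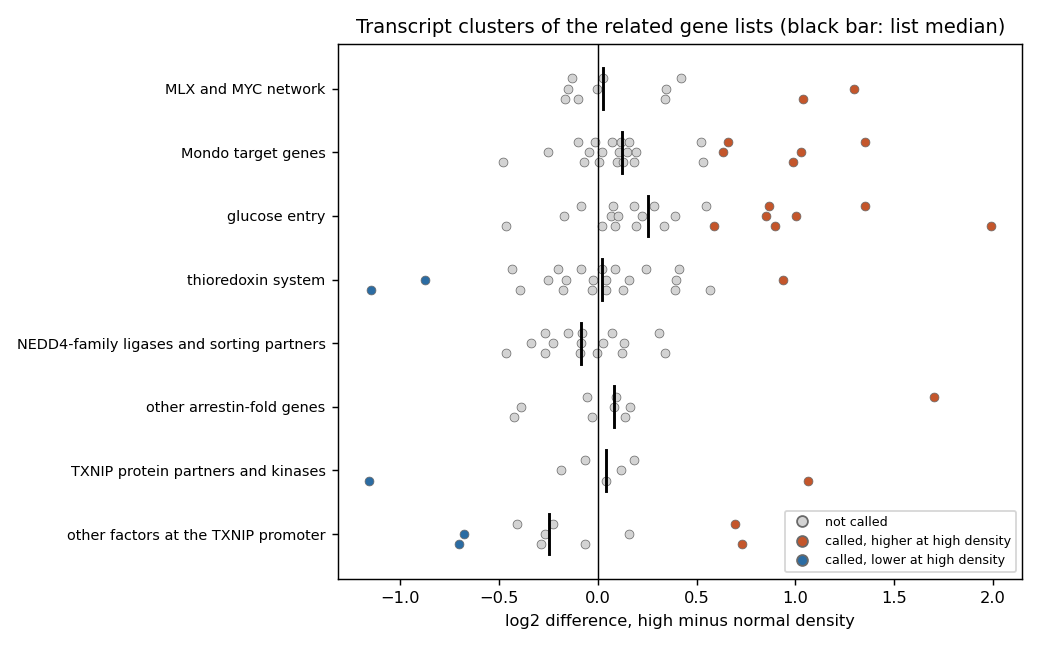
Log2 difference, high minus normal density (horizontal axis), of each transcript cluster in the 8 related gene lists (rows), with the list median as a black bar, calls in orange (higher) and blue (lower) and the others in grey; points are spread vertically for legibility. All 7 calls among the genes of glucose entry lie to the right, up to 1.99 for SLC2A3, and the NEDD4-family ligases and sorting partners hold no call.

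Genes of glucose entry, the transporters and the enzymes of the next steps, were called for 7 of 22 transcript clusters, each of them up. The share called was 31.8%, beside 7.49% of all transcript clusters and 13.0% of those above background. At both densities 6 of the 22 were at or below background. The median log2 difference was 0.26. The largest difference was that of SLC2A3, which encodes the high-affinity transporter GLUT3. Its signals were 8.66, 8.83 and 8.49 at normal density and 10.72, 10.77 and 10.47 at high density, a log2 difference of 1.99 (standard error 0.12, limma's adjusted p = 6.85e-05). SLC2A1, the gene of the basal transporter GLUT1 that TXNIP protein is known to bind, rose by 0.85 (standard error 0.09, limma's adjusted p = 0.000771) from 10.03 ± 0.11 to 10.88 ± 0.10 (SD, n = 3), with separate groups. SLC2A4, the gene of the insulin-responsive GLUT4, had a mean of 4.21 ± 0.19 (SD, n = 3) at normal density, below background in every culture, and signals of 5.31, 5.17 and 5.18 at high density, at least 1.52-fold higher (limma's adjusted p = 0.000793).

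HK2, a hexokinase that makes glucose-6-phosphate, rose from 8.62 ± 0.05 to 9.97 ± 0.04 (SD, n = 3), a log2 difference of 1.36 (standard error 0.07, limma's adjusted p = 3.43e-05). PFKL and PFKP, phosphofructokinase subunits of the following committed step, rose by 0.90 and 0.87 (limma's adjusted p = 0.00133 and 0.000571). The rise of SLC2A13, a myo-inositol transporter, was at the threshold with 0.59 (limma's adjusted p = 0.00296) and was not called after each array was shifted to the same median, where it was 0.54, with array weights, where it was 0.56, or without high density replicate 2, where it was 0.53. It was not called without normal density replicate 1 either, with 0.54.

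Genes known as targets of MondoA or ChREBP, other than TXNIP and ARRDC4, were called for 5 of 24 transcript clusters, each of them up. This share was 20.8%, beside 7.49% of all transcript clusters and 13.0% of those above background. The median log2 difference was 0.12. The largest rise, that of HK2, is shared with the list above. BHLHE40, a repressor of the basic helix-loop-helix family, rose by 1.03 (standard error 0.08, limma's adjusted p = 0.000233) from 9.73 to 10.76. The fatty acid synthesis genes FASN and ACLY rose by 0.99 and 0.63 (limma's adjusted p = 0.000527 and 0.000982). PNPLA3, a lipid droplet hydrolase, was called with 0.66 (limma's adjusted p = 0.00821) for its transcript cluster 12863589, with both group means below background, and not for the other. This call was lost by the methods' t-test (adjusted p = 0.0594), under a filter at the background level and without high density replicate 3, where the log2 difference was 0.58. KLF10, a zinc finger repressor that responds to glucose, had lower signals at high density, 7.64, 7.73 and 7.43 beside 8.08, 8.07 and 8.09, and its log2 difference of −0.48 (limma's adjusted p = 0.00939) was below the fold change threshold. In this list 11 of 24 transcript clusters were at or below background at both densities, among them PKLR, the liver pyruvate kinase gene and a classic target of ChREBP.

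In the network of MLX and MYC, 2 of 11 transcript clusters were called, both up. This is 18.2%, beside 7.49% of all transcript clusters and 13.0% of those above background. MXI1, an antagonist of MYC, rose from 6.99 to 8.03, by 1.04 (standard error 0.07, limma's adjusted p = 0.000126), and MYCN from signals of 4.19, 4.02 and 4.28 below background to 5.46, 5.42 and 5.51, at least 1.79-fold (limma's adjusted p = 0.000112). MYC itself had a log2 difference of 0.03 (limma's adjusted p = 0.888).

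The thioredoxin system, in which thioredoxin reductases reload TXN and peroxiredoxins and ribonucleotide reductase spend its electrons, was called for 3 of 23 transcript clusters, 1 up and 2 down, with a median log2 difference of 0.02. No row of this list was at or below background at both densities. The share called, 13%, was that of all transcript clusters above background, also 13%. TXNRD1, the cytosolic reductase that regenerates TXN, had signals of 8.09, 8.03 and 8.18 at normal and 7.18, 7.35 and 7.14 at high density, a fall by 0.87 (standard error 0.08, limma's adjusted p = 0.000527). RRM2, the ribonucleotide reductase subunit that is high in the S phase, fell by 1.15 (standard error 0.13, limma's adjusted p = 0.000924). PRDX5, a peroxiredoxin of several organelles, rose by 0.94 (standard error 0.06, limma's adjusted p = 0.000113) from 5.98 to 6.92. The mitochondrial thioredoxin gene TXN2 was not called, with a log2 difference of 0.25 (limma's adjusted p = 0.0688).

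Among genes whose proteins bind or modify the TXNIP protein or share its partner, 1 of 7 was called up and 1 down. In either direction this is 28.6%, beside 7.49% of all transcript clusters and 13.0% of those above background. DDIT4, the gene of the mTORC1 inhibitor REDD1, which forms a complex with TXNIP, rose from signals of 7.99, 8.05 and 7.90 to 9.14, 8.93 and 9.06, by 1.06 (standard error 0.08, limma's adjusted p = 0.000201). MAP3K5, the gene of the kinase ASK1 that thioredoxin holds inactive, fell from 6.74, 6.82 and 6.70 to 5.50, 5.86 and 5.43, by 1.16 (limma's adjusted p = 0.000738, standard error 0.12). NLRP3, the inflammasome sensor, was below background, with means of 2.27 and 2.31.

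Other transcription factors known to act on the TXNIP gene were called for 4 of 10 transcript clusters, 2 in each direction. The share was 40%, beside 7.49% of all transcript clusters and 13.0% of those above background. NR3C1, the glucocorticoid receptor, fell by 0.70 (standard error 0.07, limma's adjusted p = 0.000796), and NFYB, a subunit of the CCAAT-binding factor NF-Y, fell by 0.68 (standard error 0.10, limma's adjusted p = 0.00277) in transcript cluster 12868288. The log2 differences of NFYA and NFYC were −0.29 and −0.27, below the fold change threshold. KLF6 rose by 0.73 (standard error 0.07, limma's adjusted p = 0.000572). VDR, the vitamin D receptor, was called up with 0.70 (limma's adjusted p = 0.00537), but both of its means, 3.86 and 4.55, were below background, so that no fold is given. FOXO1 was not called, with signals of 9.87, 9.86 and 9.78 at normal and 9.44, 9.36 and 9.50 at high density and a log2 difference of −0.41 (limma's adjusted p = 0.00756).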

How the data were processed

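RNA from 6 GC cultures, 3 per plating density, was hybridized to Affymetrix gene arrays for cattle. The authors ran the scans through Expression Console with RMA at default settings (background reduction, normalization, gene-level summary) and deposited log2 signals per transcript cluster and culture, which were used unchanged. The table holds 0 columns of other samples. The number of arrays limits precision. Symbols are those of the table, and 7 of 8 member accessions carry the same symbol in RefSeq's gene table.

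High and normal density were compared with limma 3.58.1 in R 4.3.3 (lmFit, eBayes, no covariates, both groups in 1 fit), and p-values were adjusted over the whole table of 26773 transcript clusters (Benjamini-Hochberg). Called means a fold change above 1.5 with a p-value and FDR below 0.05. Folds are differences of mean log2 signals. An exact permutation test of 3 against 3 cultures cannot go below p = 0.1. A bound on a fold puts the background level in place of dimmer signals. Likeness is Pearson's correlation over the cultures. Figures were drawn with matplotlib 3.10.9.

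The members and lists were chosen with earlier results of these data known. Genes named are the members, the called genes with the largest differences of each list (up to 6), a fixed set of key genes of the lists and the 5 genes most like TXNIP and most like ARRDC4. Named outside this rule, after their values were seen, were the GC markers CYP19A1, FSHR, INHA and HSD17B1. Also named so were the markers VWF, CYP17A1, INSL3, ACTA2, LHCGR, TCF21, UPK1B, MSLN, WT1, LRRN4 and UPK3B. So were MYC, NLRP3, PKLR, NFYA, NFYC and genes near the thresholds. The scripts were tested on simulated data. Alternatives were other scalings, variance models, array weights, the analysis of variance that the methods name for the arrays (for 2 groups a t-test, called the methods' t-test), the replicate number as a block, a filter at background, Tukey's biweight and leaving out each culture. Over all transcript clusters, the deviations of same-numbered cultures from the density means correlated between −0.05 and 0.05. Rows at background can dilute such a correlation, so whether replicate numbers pair the cultures is not settled. Sequences of the members were not analysed here.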

Additional observations from a re-analysis of the deposited data

How the results depend on the processing

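The differences of the members are descriptions, so no call of theirs is weighed here. The fit with the replicate block cannot change these differences, since each replicate number occurs at both densities. It called 2020 transcript clusters in the table, beside 2005 in the main fit. The methods' t-test called fewer, 1611, of which 923 were up and 688 down. With signals below background set to the background level, the log2 difference of TXNIP was −5.39 and that of MLXIPL 0. With each culture left out in turn, the log2 difference was between −6.31 and −5.94 for TXNIP, −3.08 and −2.96 for ARRDC4, 1.13 and 1.25 for ARRDC2, 0.22 and 0.35 for MLXIP, 0.13 and 0.32 for MLXIPL, 0.02 and 0.18 for ARRDC3, −0.15 and 0.00 for ARRDC1, and −0.11 and 0.05 for TXN, so ARRDC1 and TXN have no settled direction. Between 1848 and 2434 transcript clusters were then called, the latter without high density replicate 2. Directions over the table shifted with scaling, from 1064 up and 941 down to 955 up and 1119 down with equal array medians. In the lists, calls of 3 transcript clusters (SLC2A13, PNPLA3 and VDR) were lost and those of 3 (SLC2A9, SEPX1 and the other PNPLA3) gained under at least 1 alternative. The median likeness of the genes most like TXNIP was 0.943 by Spearman's correlation. Signals at background, 51.2% of transcript clusters at both densities, limit every fold that starts or ends there. Promoter motifs and protein identity, with their alternatives, were planned and not run.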

Other observations

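Among transcripts of the NEDD4-family ligases and sorting partners, whose proteins work with α-arrestins, 0 of 16 transcript clusters were called by limma or by the methods' t-test. Of all transcript clusters 7.49% were called, and of those above background 13.0%. In the list 4 of the 16 were at or below background at both densities. A count of 0 in a list of this size is near either share. Of the 16, 4 had limma's adjusted p below 0.05 at any fold, beside 19.1% of all transcript clusters by the same measure. An unadjusted p below 0.05 was found for 7, for which the share over the table is not given here. NEDD4, the ligase that gives the family its name, had signals of 9.27, 9.22 and 9.23 at normal and 8.73, 8.86 and 8.74 at high density, a log2 difference of −0.46 (limma's adjusted p = 0.00388). ITCH, the ligase known to ubiquitinate TXNIP protein, had overlapping groups and a log2 difference of −0.09 (limma's adjusted p = 0.549).

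Among the other genes of the arrestin fold, 1 of 9 was called, 11.1% beside 7.49% of all transcript clusters and 13.0% of those above background. At both densities 3 of the 9 were at or below background. ARRB1, the gene of β-arrestin 1, which desensitizes G protein-coupled receptors, rose from signals of 4.82, 4.78 and 4.73 to 6.45, 6.56 and 6.43, a log2 difference of 1.70 (standard error 0.07, limma's adjusted p = 2.05e-05), 3.25-fold and above background in every culture. ARRB2, the gene of β-arrestin 2, had a log2 difference of −0.39 (limma's adjusted p = 0.0333), below the fold change threshold. The difference between both was not tested. ARRDC5 was below background in every culture, with signals between 2.42 and 2.83.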
